A study of Drosophila melanogaster with 16 samples.

Results

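Antisense RNA of transposable elements was compared between ovaries of Drosophila melanogaster in which the germline driver nos-GAL4 knocked down piwi (nos piwi) and ovaries in which it knocked down the eye colour gene white (nos white), which served as the control. The elements described are the transposon families whose mean over the 4 antisense RNA-seq columns (piwi and white knockdown under the nos and the Tj driver) was at least 1 RPM (reads per 1000000), which left 109 of 119 families. All flies were kept at 25 degrees and were 3 to 5 days old, and every group compared carried a GAL4 driver and a knockdown. The nos driver acts in germ cells, so the somatic cells of a nos piwi ovary were not a target of the knockdown, and whole ovaries were sampled. Besides RNA-seq, the groups nos piwi and nos white had nascent RNA (GRO-seq, transcripts extended in a nuclear run-on), H3K9me3 ChIP-seq and a ChIP input library, each as 1 sample. Ovaries with the Tj driver (Tj piwi and Tj white), which acts in the somatic cells around the germline, are set beside them. The levels of the piwi and white transcripts are not analysed here.

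Piwi is a nuclear Argonaute protein that carries piRNAs, small RNAs of which many are antisense to transposon transcripts, and it silences matching elements in ovarian germline and somatic cells. Antisense transposon RNA in an ovary can come from piRNA clusters, which are transcribed into long precursors, from promoters inside an element that fire against its genes, or from genomic promoters next to an insertion. The non-LTR telomeric elements HeT-A, TAHRE and TART, which maintain fly chromosome ends, are known to be transcribed from both strands. In whole ovaries, fewer cells of a type and less RNA per cell cannot be told apart. RPM was not divided by the length of the element, so levels below are shares of the library's reads, and orders between families are orders of reads.

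Antisense RNA was at least 2-fold higher in nos piwi than in nos white for 53 of 109 families (48.6%) and at least 2-fold lower for 0 of 109 (0%). Ratios here are of RPM + 1. The median family was 1.90-fold higher, a log2 ratio of 0.93. Relative to this median, 24 families were at least 2-fold higher and 11 at least 2-fold lower. In 14 families the antisense ratio was at least 8-fold, in 31 the level moved by at most 1.25-fold either way, and the lowest ratio was 0.74, in the LTR element Tom1. Sense RNA of the same families in the same libraries was at least 2-fold higher in 59 of 109 (54.1%), with a median of 2.33-fold. A total of 7 families reached the level filter only through the piwi columns, with a mean under 1 RPM in the 2 white columns, and 6 of these 7 were among the 53.

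**Figure D1:**
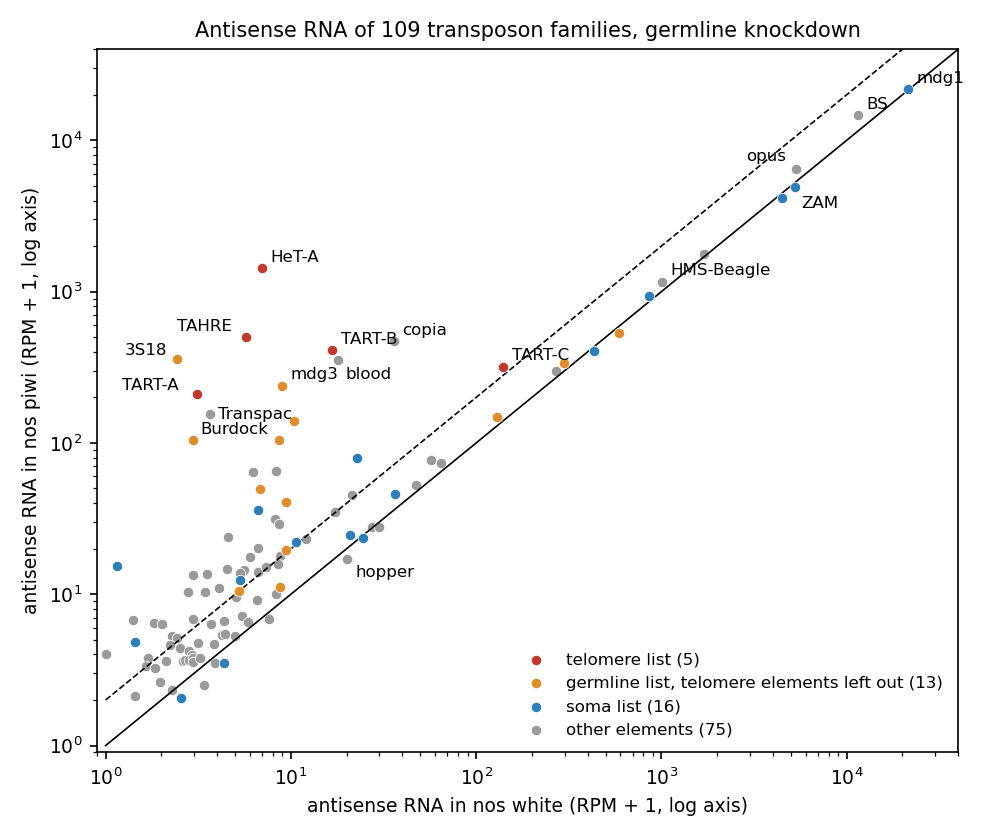
Antisense RNA of each of the 109 families in nos piwi (vertical) and nos white (horizontal), as RPM + 1 on log axes, with 1 point per family coloured by list; the solid line marks equal levels and the dashed line a 2-fold higher level in nos piwi. HeT-A stood at 1433 RPM in nos piwi against 5.99 RPM in nos white, while mdg1, at 21920 against 21485 RPM, lay on the line of equal levels.

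The largest antisense ratio belonged to HeT-A, whose arrays make up much of the fly telomere. HeT-A antisense RNA was 1433 RPM in nos piwi, against 5.99 RPM in nos white (205-fold, log2 ratio 7.68). The related TAHRE, a HeT-A-like element with its own reverse transcriptase, had 497 RPM in nos piwi and 4.72 RPM in nos white (87.1-fold). TART-A had 209 RPM against 2.12 RPM (67.3-fold), and TART-B had 411 RPM against 15.7 RPM (24.7-fold). TART elements also encode a reverse transcriptase, and TART-C differed from its relatives in already holding 139 antisense RPM in nos white. TART-C had 318 RPM in nos piwi, a 2.28-fold difference. All 5 members of the telomere list were thus past 2-fold, beside 48.6% of all 109 families. Their median log2 ratio was 6.07, against 0.93 over all 109 families. The list was written with earlier results of these data known, so this contrast is not independent of these data. Together the 5 gave 2869 antisense RPM in nos piwi and 167 RPM in nos white.

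Input reads of 4 of these 5 elements differed between the lines beyond counting error. ChIP input, the chromatin before the antibody step, gave HeT-A 0.610 times (95% interval 0.576 to 0.646) and TAHRE 0.639 times (0.600 to 0.681) as much in nos piwi as in nos white. TART-A input was 2.10 times as high (1.78 to 2.48), TART-B 1.80 times (1.63 to 2.00) and TART-C 0.896 times (0.773 to 1.04). Each of these 5 differences in antisense RNA exceeded the difference in input, and for HeT-A and TAHRE the 2 ran in opposite directions. Such input differences were not confined to the telomere list. In 3S18 input was 1.46 times as high in nos piwi (1.39 to 1.55), while the interval of diver included 1 (0.950 times, 0.890 to 1.01). Over the 14 families at least 8-fold higher in antisense RNA, the input ratio ran from 0.610 to 2.13. The part of the input in the antisense values was not tested.

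The other elements among the 10 largest antisense ratios were LTR retrotransposons, which move through a reverse-transcribed RNA copy. 3S18, of the BEL-Pao group, had 359 antisense RPM in nos piwi and 1.42 RPM in nos white (149-fold). Transpac, of the gypsy group, had 153 against 2.66 RPM (42.2-fold), and Burdock, of the same group and expressed in germ cells, had 103 against 1.94 RPM (35.5-fold). These 3 families thus had few antisense reads in the control and over 100 RPM in the knockdown. The gypsy-group elements mdg3 and blood had 238 against 7.91 RPM (26.8-fold) and 351 against 16.8 RPM (19.7-fold). GATE, of the BEL-Pao group, had 139 against 9.36 RPM (13.5-fold). Below these lay Tirant (14.3 against 0.144 RPM, 13.4-fold on the RPM + 1 scale), copia (13.2-fold), diver (12.1-fold) and gypsy12 (10.4-fold). The 14 families past 8-fold were 10 LTR families and 4 telomeric LINE-like families. They gave 4547 antisense RPM in nos piwi and 117 RPM in nos white.

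The series states 2 replicates for RNA-seq, while the deposited table has 1 column per condition and strand. The values of a column came out as means of 2 libraries with whole-number read totals: 9404654 and 1346679 reads in nos piwi and 6934960 and 1228186 reads in nos white, in units in which most read numbers of the deeper library were even (77.2% and 88.7%), so that its reads may have been counted in pairs. The totals fitted all 13 distinct values under 1 RPM in nos piwi with whole reads, but 13 of 17 in nos white. On these totals the antisense value of 54 of the 109 families could be taken apart into the RPM of each library in both columns. Of the remaining 55, 15 could be taken apart in nos white alone, 2 in nos piwi alone and 38 in neither, and why was not tested. HeT-A, mdg3, blood and copia were among the 15, with 7.50 and 4.48, 6.06 and 9.77, 14.6 and 19.1, and 34.6 and 35.0 antisense RPM in the deeper and shallower nos white library. In these 4 families both nos white libraries lay far below the nos piwi mean. Nothing in the labels ties a library of nos piwi to one of nos white or gives separate cultures, so the spread between the 2 may be technical. With 2 libraries against 2, a two-sided exact permutation test cannot give a p below 0.333, so no p is given.

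In 40 of these 54 families (74.1%) both nos piwi libraries lay above both nos white libraries, in 0 both lay below, and in 14 the libraries overlapped. All 28 of the 54 that were at least 2-fold higher on the mean were among the 40. In 15 families the lower nos piwi library was still at least 2-fold above the higher nos white library. The 54 held fewer control reads than the rest, with a median of 2.87 RPM in nos white against 9.62 RPM in the other 55, so they describe the lower range of levels.

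3S18 had 438 and 281 antisense RPM in the deeper and shallower nos piwi library, against 2.02 and 0.814 RPM in the deeper and shallower nos white library. Transpac had 206 and 101 RPM in nos piwi, against 2.88 and 2.44 RPM in nos white. Burdock had 129 and 78.0 RPM in nos piwi and 1.44 and 2.44 RPM in nos white. In these 3 families the RPM of the libraries of a condition differed by up to 2.48-fold, in 3S18 of nos white, with 14 and 1 reads. On the RPM + 1 scale the gap between conditions was at least 22.9-fold between the closest libraries. The BEL-Pao element diver had 135 and 72.0 RPM against 7.21 and 8.14 RPM, and gypsy12 had 59.8 and 67.6 RPM against 7.21 and 3.26 RPM. The I-element, the LINE behind I-R hybrid dysgenesis, had 53.8 and 25.2 RPM in nos piwi and 7.79 and 8.96 RPM in nos white. The groups did not overlap in any of these, nor in invader2 (68.3 and 60.9 against 8.94 and 5.70 RPM) or Idefix (31.8 and 37.9 against 7.21 and 4.07 RPM).

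Nearer the 2-fold mark the conditions lay closer together. The LINE jockey had 26.6 and 10.4 antisense RPM in nos piwi, against 9.52 and 7.33 RPM in nos white, so its 2.07-fold mean difference rested largely on the deeper nos piwi library, and the closest libraries were 1.08-fold apart. The LINE Juan, just past the 2-fold mark at 2.01-fold, had 9.36 and 9.65 RPM against 5.19 and 3.26 RPM, and the DNA transposon 1360, at 2.02-fold, had 30.6 and 37.5 RPM against 15.3 and 17.5 RPM. The third family just past the mark was gypsy11 at 2.03-fold. Doc3-element (1.92-fold), X-element (1.90-fold) and Stalker4 (1.85-fold) lay just under it. Overlap was seen in rooA, with 23.6 and 30.4 RPM in nos piwi against 25.1 and 27.7 RPM in nos white, and in Tc1, with 7.23 and 4.46 RPM against 4.33 and 8.96 RPM.

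**Figure D2:**
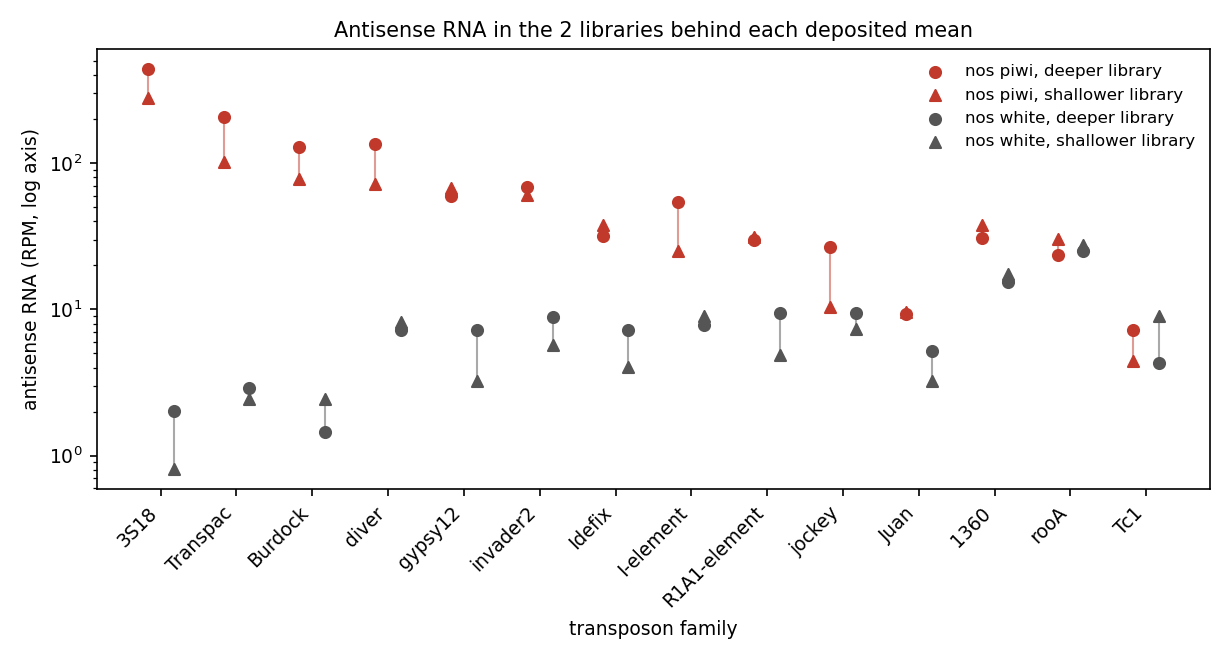
Antisense RNA (RPM, log axis) of 14 families in the deeper library (circles) and the shallower library (triangles) of nos piwi, drawn left, and of nos white, drawn right, with a line joining the 2 libraries of a condition. From 3S18 to 1360 both nos piwi libraries lie above both nos white libraries, with 438 and 281 against 2.02 and 0.814 RPM in 3S18, and in rooA and Tc1 the conditions overlap.

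Most antisense transposon reads belonged to families that hardly moved. Summed over the 109 families, antisense RNA was 63790 RPM in nos piwi and 54189 RPM in nos white, a ratio of 1.18, whereas summed sense RNA was 44327 and 7932 RPM, a ratio of 5.59. A set of 12 families had at least 100 antisense RPM and at least 80% of their RPM on the antisense strand in nos white. They gave 57524 RPM in nos piwi and 53019 RPM in nos white, or 90.2% and 97.8% of all antisense RPM. The other 97 families together gave 6266 RPM in nos piwi and 1170 RPM in nos white, a ratio of 5.36. The antisense total thus moved little while that of the other 97 families was several times higher. The 97 include the 14 families past 8-fold, in which most of the added RPM lay. These 14 gave 4547 RPM in nos piwi and 117 RPM in nos white. Antisense reads made up 59.0% of transposon RPM in nos piwi and 87.2% in nos white.

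The LTR element mdg1, of the gypsy group, gave the most antisense reads, 21920 RPM in nos piwi and 21485 RPM in nos white (1.02-fold). The LINE BS had 14703 against 11471 RPM (1.28-fold), and opus had 6438 against 5320 RPM (1.21-fold). ZAM, an LTR element with envelope protein that is expressed in follicle cells, had 4881 against 5287 RPM (0.92-fold), and Tabor had 4173 against 4453 RPM (0.94-fold). These 5 families held 81.7% of antisense RPM in nos piwi and 88.6% in nos white, and none reached 1.3-fold. The LINE G2 had 1759 against 1707 RPM, HMS-Beagle had 1164 against 1009 RPM and 17.6 had 936 against 857 RPM. Rt1a, an R1-like LINE of the germline list, had 534 against 591 RPM (0.90-fold). Across the 12 families the antisense ratio ran from 0.90 to 2.28, with TART-C as the single family past 2-fold. None of these 12 values could be taken apart into libraries.

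By class, 31 of 58 LTR families, 16 of 31 LINE-like families and 6 of 16 DNA transposons were at least 2-fold higher in antisense RNA, or 53.4%, 51.6% and 37.5% beside 48.6% of all 109 families, with median log2 ratios of 1.05, 1.01 and 0.79, or 0.12, 0.08 and -0.14 relative to the median of all families. The class with the fewest large ratios was that of the DNA transposons, where Bari1, a Tc1-like element, led at 4.82-fold with 5.78 against 0.407 RPM. Bari1 had 1.91 and 9.65 RPM in the deeper and shallower nos piwi library, against 0 and 0.814 RPM in nos white. It reached the level filter only through the piwi columns, with a mean of 0.952 RPM in the 2 white columns. The lists that follow were written with earlier results of these data known, so contrasts between them are not independent of these data. The germline list, families known to be active in germ cells, had a median antisense log2 ratio of 3.23. Of its 18 members, 14 (77.8%) were past 2-fold, beside 48.6% of all families. Without the 5 telomeric families it had 9 of 13, with a median log2 ratio of 2.11. Its members roo (148 against 129 RPM), Doc (338 against 298 RPM), Rt1a and Rt1b (1.28-fold) stayed under 2-fold. The soma list, families known from follicle cells, had a median antisense log2 ratio of 0.18, with 6 of its 16 members (37.5%) past 2-fold, and that median is -0.75 relative to the median of all families. Those 6 were Tirant, Idefix (5.40-fold), 412 (78.6 against 21.8 RPM, 3.48-fold), gypsy5 (3.37-fold), springer (2.33-fold) and Quasimodo (2.10-fold). Of these, Tirant and gypsy5 reached the level filter only through the piwi columns, with means of 0.383 and 0.343 RPM in the 2 white columns. The other 10 members stayed under 1.3-fold. They include mdg1, ZAM, Tabor and 17.6, given above among the families with most antisense reads, and below these gypsy6 (401 against 432 RPM), Stalker2 (45.2 against 35.6 RPM) and 297 (22.7 against 23.6 RPM). Besides the telomeric elements, the list of families with a known promoter in the antisense direction held F-element, a LINE with 75.6 against 56.3 RPM (1.34-fold), and micropia, an LTR element whose antisense RNA is known from Drosophila hydei, with 5.37 against 1.01 RPM (3.17-fold).

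No family was at least 2-fold lower. The 5 lowest ratios were those of Tom1 (1.51 against 2.37 RPM, 0.74-fold), gtwin (2.50 against 3.33 RPM), gypsy10 (1.06 against 1.54 RPM), hopper (16.2 against 19.1 RPM) and Tc1 (5.84 against 6.64 RPM, 0.90-fold). Of these, gypsy10 and Tc1 could be taken apart, and their libraries overlapped.

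How antisense RNA moved relative to sense RNA of the same family is shown by the difference of the 2 log2 ratios, for which both strands share the same libraries. The antisense ratio was the smaller one in 79 of 109 families and the larger one in 30, with a median difference of -0.46. With each strand taken relative to its own median over the families, the antisense ratio was the larger one in 44 and the median difference was -0.17. Among the 14 families past 8-fold in antisense RNA the sense ratio was larger in 13, with blood as the exception (log2 ratio 4.30 for antisense and 3.98 for sense). 3S18 moved almost alike on both strands, at 7.22 for antisense and 7.25 for sense.

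**Figure D3:**
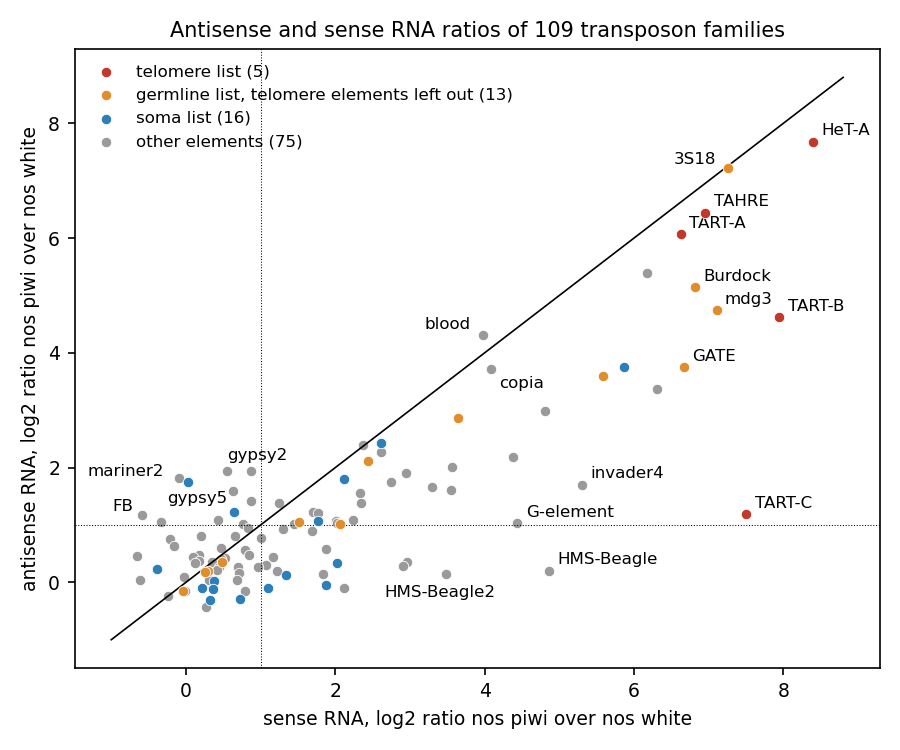
Log2 ratio of nos piwi over nos white for antisense RNA (vertical) and sense RNA (horizontal), with 1 point per family coloured by list; the solid line marks equal ratios and the dotted lines 2-fold. Of 109 families, 79 lie under the line, TART-C farthest at 1.19 for antisense and 7.50 for sense RNA.

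The widest gaps with the larger sense ratio belonged to families that carried antisense RNA in the control. TART-C had 919 sense RPM in nos piwi and 4.07 RPM in nos white, so its antisense share was 25.7% in nos piwi against 97.2% in nos white. HMS-Beagle, an LTR element, had 960 sense RPM against 32.0 RPM, and its antisense share was 54.8% against 96.9%. For invader4 the antisense share was 13.4% against 73.5%, for the LINE G-element 25.0% against 86.6%, for HMS-Beagle2 61.8% against 94.6% and for TART-B 16.1% against 67.1%. In each of these 6 families, chosen by the gap between strands, most control reads were antisense, as in 42 of all 109 families. In 4 of them most reads of the knockdown were sense, a switch found in 16 of all 109. Control sense RNA of invader4 and G-element was low, at 1.27 and 0.984 RPM. Among families with at least 10 RPM on both strands together in both conditions, GATE (15.7% against 59.7%), Circe (19.3% against 63.5%) and gypsy12 (9.68% against 44.5%) were also among the 6 largest losses of antisense share.

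A larger antisense than sense ratio was found for families with few reads. The DNA transposon mariner2 had 5.42 antisense RPM in nos piwi and 0.814 RPM in nos white, beside 1.65 and 1.82 sense RPM. FB, a foldback DNA transposon, had 2.81 against 0.695 antisense RPM, and gypsy5 had 3.82 against 0.433 RPM. These values rest on few reads: mariner2 had 46 and 8 antisense reads in the deeper and shallower nos piwi library, against 0 and 2 in nos white. The same held for frogger (3.61 against 1.22 RPM), S2 (2.68 against 1.67 RPM) and, at a higher level, gypsy2 (12.6 against 2.54 RPM). Sense RNA of FB, frogger and S2 was lower in nos piwi, at 0.66-fold, 0.79-fold and 0.64-fold, and the antisense libraries of S2 overlapped. With more reads, R1A1-element, a LINE that inserts in ribosomal RNA genes, had 29.7 and 31.2 antisense RPM in the nos piwi libraries against 9.52 and 4.89 RPM in the nos white libraries. Its antisense share was 54.5% in nos piwi and 34.9% in nos white, the widest gain among families with at least 10 RPM in both. The next gains were those of G5A (24.5% against 10.6%), INE-1 (26.4% against 15.7%), gypsy (27.1% against 19.4%), springer (18.7% against 12.2%) and Dm88 (12.7% against 7.74%). G5A had few antisense reads, 14 and 5 in the deeper and shallower nos piwi library against 10 and 1 in nos white. Sense RNA of G5A and INE-1 was lower in nos piwi, at 0.86-fold and 0.90-fold.

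The families with the largest antisense ratios had a similar antisense share in nos piwi. It lay between 8.42% (copia) and 16.1% (TART-B) in the 14 families past 8-fold, with a median of 12.4%. In nos white it lay between 6.75% (3S18) and 67.1% (TART-B), with a median of 20.2%. Over all 109 families the medians were 32.7% in nos piwi and 43.1% in nos white. Some families under 8-fold had a share in the same range, such as Max-element (12.6%) and Juan (11.8%). A similar share also appeared in the RPM added in nos piwi over nos white. Of 23 families with at least 100 added sense RPM, 19 were also past 2-fold in antisense RNA, beside 48.6% of all 109 families. In these 19, antisense reads were 8.30% to 17.7% of the added RPM, with a median of 12.7%. HeT-A had 14.4%, TAHRE 12.7%, TART-A 15.6%, 3S18 10.3%, Transpac 8.70%, mdg3 12.8% and 412 17.7%. Of the remaining 4, HMS-Beagle had 14.3% and HMS-Beagle2 14.6%, and BS and opus had 89.5% and 86.0%, close to the antisense shares of BS (89.3%) and opus (91.2%) in nos white.

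**Figure D4:**
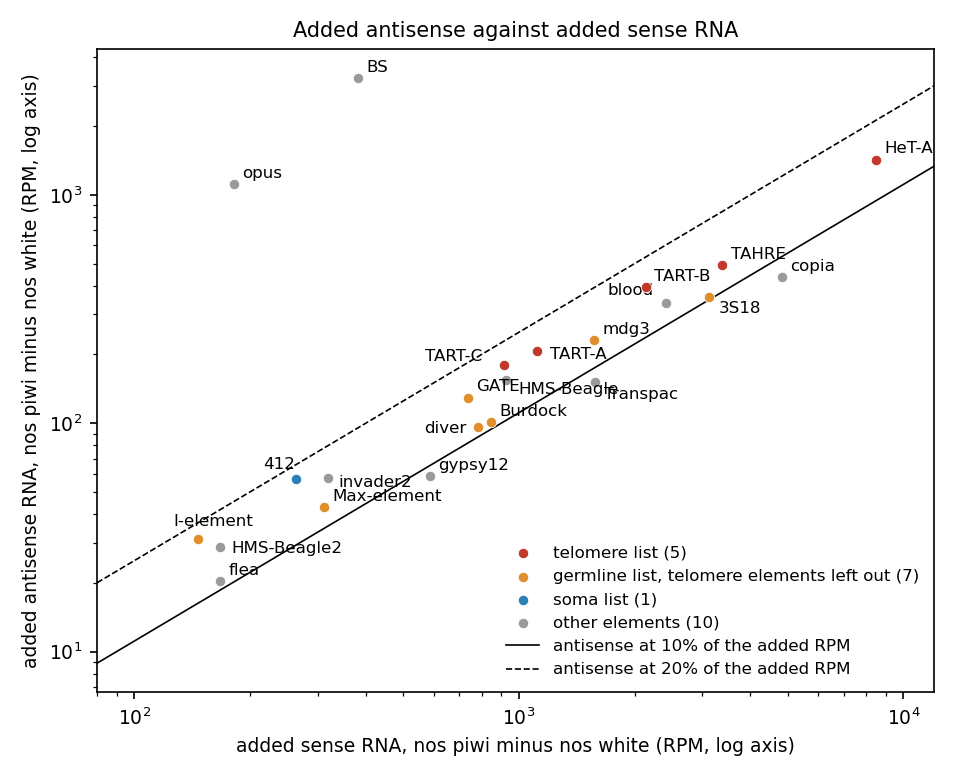
Added antisense RNA against added sense RNA (nos piwi minus nos white, RPM, log axes) for the 23 families with at least 100 added sense RPM, coloured by list; the solid line marks antisense at 10% of the added RPM and the dashed line at 20%. The points from flea to HeT-A follow a band between 8.30% and 17.7%, and BS and opus lie far above it.

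A fixed share of reads placed on the wrong strand would also add antisense RPM in step with sense RPM, and its part in these values was not tested. The labels' protocols do not say how strand was kept in the RNA-seq libraries. The DNA transposon hopper, with 2959 sense RPM in nos piwi and 3507 RPM in nos white, had an antisense share of 0.543% in both. The antisense share of a family differed between the libraries of nos piwi. 3S18 had an antisense share of 12.8% in the deeper and 7.87% in the shallower nos piwi library, Transpac 9.77% and 7.18%, Burdock 13.8% and 7.95% and diver 14.0% and 8.60%. In these 4 families the deeper library gave the higher share, and the same was true of gypsy12 at 10.4% and 9.13%.

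Nascent antisense RNA of the same 109 families, from other samples, moved less than steady-state antisense RNA. It was at least 2-fold higher in nos piwi for 16 families (14.7%) and at least 2-fold lower for 0, with a median log2 ratio of 0.13. Of the 53 families past 2-fold in steady-state antisense RNA, 13 were past 2-fold in nascent antisense RNA, so the 2 sets shared 24.5% of the one and 81.2% of the other. Across the 109 families, which share 1 column per condition in each assay, Pearson's r between the steady-state and nascent antisense log2 ratios was 0.16 and Spearman's rho 0.25. Between the steady-state antisense and the nascent sense log2 ratios they were 0.66 and 0.55.

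HeT-A had 102 nascent antisense RPM in nos piwi and 200 RPM in nos white, a log2 ratio of -0.96, beside 251 and 48.0 nascent sense RPM. Nascent antisense RNA of TAHRE was 73.9 against 107 RPM, of mdg3 59.8 against 84.3 RPM and of Transpac 99.5 against 100 RPM. In these 4 families nascent antisense RNA was not higher in the knockdown, while steady-state antisense RNA was at least 26.8-fold higher. 3S18 had 108 against 35.0 nascent antisense RPM, TART-A 268 against 90.0 RPM, TART-B 612 against 243 RPM and copia 209 against 84.3 RPM, and these 4 were past 2-fold. In the 14 families past 8-fold in steady-state antisense RNA, the median nascent log2 ratio was 0.15 for antisense and 2.39 for sense RNA, and 6 of 14 had a nascent antisense ratio under 1, as did 33 of all 109. The antisense share of nascent RNA was lower in nos piwi in all 14, with a median of 17.1% in nos piwi and 59.0% in nos white. It was lower in 77 of all 109, with medians of 47.6% in nos piwi and 57.3% in nos white. For HeT-A it was 28.9% against 80.6%, so most nascent HeT-A reads in nos white were antisense, while 19.7% of its steady-state reads there were.

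Some families with many steady-state antisense reads had few nascent ones. ZAM had 10.9 nascent antisense RPM in nos piwi and 10.2 RPM in nos white, and G2 had 13.5 and 23.6 RPM. BS had 84.4 against 160 nascent RPM, a log2 ratio of -0.91, beside a steady-state ratio of 0.36. Nascent antisense RNA of HMS-Beagle (131 against 48.3 RPM) and 17.6 (220 against 82.0 RPM) was past 2-fold, whereas their steady-state antisense RNA was 1.15-fold and 1.09-fold higher. The largest nascent antisense ratio was that of gypsy11, at 28.1 against 4.51 RPM.

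**Figure D5:**
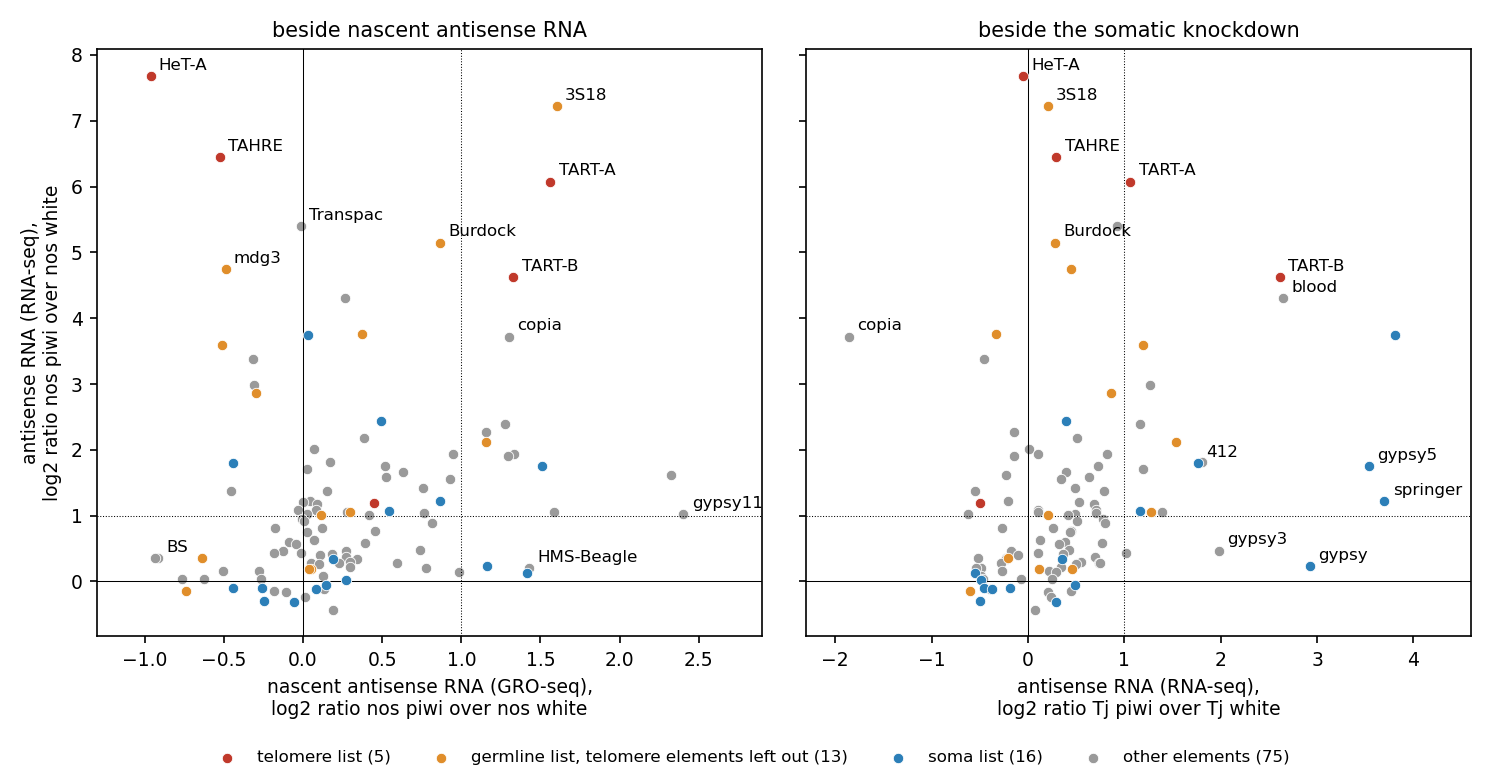
Log2 ratio of antisense RNA in nos piwi over nos white (vertical) beside that of nascent antisense RNA under the same driver (left panel) and beside that of antisense RNA in Tj piwi over Tj white (right panel), with 1 point per family coloured by list; solid lines mark equal levels and dotted lines 2-fold. HeT-A has the highest steady-state ratio, 7.68, beside a nascent ratio of -0.96 and a Tj ratio of -0.05.

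H3K9me3 over input, a measure of silent chromatin taken from 1 library of each kind per condition, was lower in nos piwi than in nos white for 13 of the 14 families past 8-fold, and for 88 of all 109 families. The median ratio was 0.577 in the 14, against 0.885 over all 109 families and 0.906 in the 56 that were not 2-fold higher. It was 0.122 for TART-B, 0.162 for HeT-A and 0.478 for 3S18. GATE was the exception at 1.01.

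Under the somatic driver, antisense RNA of the same families was at least 2-fold higher in 19 (17.4%) and at least 2-fold lower in 1, with a median of 1.27-fold. The nos and Tj comparisons have separate controls, and 16 families were past 2-fold in both, which is 30.2% of the 53 under nos and 84.2% of the 19 under Tj. HeT-A antisense RNA, at 1433 against 5.99 RPM under nos, was 9.19 RPM in Tj piwi and 9.54 RPM in Tj white. 3S18 had 3.76 against 3.13 RPM under Tj, TAHRE 6.36 against 5.00 RPM, Burdock 4.59 against 3.62 RPM and TART-A 21.9 against 9.98 RPM. These 5 families, with copia, had the widest gap in favour of the nos comparison. Of the 5 telomeric families, TART-A and TART-B were past 2-fold under Tj as well. TART-B had 46.2 against 6.71 RPM under Tj (6.12-fold), and TART-C had 137 against 194 RPM (0.71-fold). Copia antisense RNA was 471 RPM in nos piwi and 34.8 RPM in nos white, but 511 RPM in Tj piwi and 1858 RPM in Tj white.

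The widest gaps in favour of the Tj comparison belonged to gypsy, an LTR element with envelope protein known from follicle cells, with 189 antisense RPM in Tj piwi and 24.0 RPM in Tj white, beside 23.5 and 19.9 RPM in nos piwi and nos white. Springer had 57.3 against 3.49 RPM under Tj and 11.5 against 4.34 RPM under nos. For gypsy5 the values were 13.5 against 0.253 RPM and 3.82 against 0.433 RPM, and for gypsy3 9.31 against 1.61 RPM and 2.61 against 1.61 RPM. Smaller gaps followed for gtwin, at 4.58 against 3.55 RPM and 2.50 against 3.33 RPM, and for transib3, at 2.74 against 1.75 RPM and 2.50 against 2.88 RPM. Blood, at 104 against 15.9 RPM under Tj and 351 against 16.8 RPM under nos, was past 2-fold in both. None of these differences between drivers was tested.

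The 3 families just inside the level filter were gypsy9, Rt1c and gypsy11, with means over the 4 antisense columns of 1.08, 1.31 and 1.45 RPM, and just outside lay Doc4-element, transib1 and Tc3 with 0.897, 0.808 and 0.713 RPM. Of the 10 families left out, P-element was listed at 0 in all 4 columns, and none of the 10 was past 2-fold under nos.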

How the data were processed

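RNA-seq of ovaries used 150 ng of total RNA and the Encore Complete RNA-seq kit, per the labels' protocols, which do not say how strand was kept. Per the submitters' processing notes, Bowtie2 2.0.0, TopHat2 2.0.5 and DESeq 1.10.1 were named for RNA-seq, Bowtie2 and DESeq for GRO-seq and Bowtie2 for ChIP-seq, and the build was dm3. The role of each tool and the denominator of the RPM are not given in the sources used here. RPM values, deposited by the authors per family and strand for RNA-seq and GRO-seq and per family for ChIP-seq, were used as they stand.

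Ratios were log2 of RPM + 1 in piwi over white knockdown. With 1 column per condition there was no test, and 2-fold was a mark for counting. Families and lists were chosen with earlier results of these data known. Named families were the 10 largest and 5 lowest ratios, the 8 with most antisense RPM in each condition, the 6 largest differences between strands, in antisense share and between drivers each way, list members, and neighbours of the marks; others were named after their values were seen.

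Library totals were the pair of whole numbers that made most values under 1 RPM sums of whole reads. A value was taken apart where 1 pair of whole or half-step read numbers met it within 1e-08; of 10900 values shifted by a small offset, 1 was. The calculation was tested on simulated data. ChIP reads were recovered likewise from totals of 2514000 to 2987000 reads, and 95% intervals on input ratios used the reciprocal read numbers; they cover counting error only. RPM was not divided by length, and reads shared between related families could not be told apart. The depth of the GRO-seq libraries was not recovered here. Alternatives were pseudocounts of 0.1 and 5 RPM, other level filters and centring on the median. Computation used Python 3.11.15, numpy 2.4.6 and pandas 2.3.3.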

Additional observations from a re-analysis of the deposited data

Results flagged for a closer look

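Copia, an LTR retrotransposon, was the single family whose antisense RNA moved at least 2-fold in opposite directions under the germline and the somatic driver. Its log2 ratio was 3.72 in nos piwi over nos white and -1.86 in Tj piwi over Tj white, and the difference was not tested. The controls differed as well, with 1858 antisense RPM in Tj white and 34.8 RPM in nos white. The antisense share of copia RNA was 8.42% in nos piwi, 10.4% in nos white, 7.82% in Tj piwi and 9.63% in Tj white.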

How the results depend on the processing

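The number of families at least 2-fold higher in antisense RNA in nos piwi, 53 as reported, was 29 with a pseudocount of 5 RPM, 30 of 54 when a mean of 10 RPM over the 4 columns was required and 24 after centring on the median. Centring also gave 11 families at least 2-fold lower, where 0 were reported, set the median log2 ratio to 0.00 and turned the medians of the soma list (-0.75) and the DNA transposons (-0.14) negative, which follows from subtracting the overall median of 0.93. The number of families with the larger antisense than sense ratio, 30 as reported, was 9 of 54 with the 10 RPM filter, or 16.7% beside 27.5% as reported, and the cause was not tested. Centring each strand moved that number to 44 and the median difference between strands to -0.17, against -0.46 as reported. With a pseudocount of 0.1 RPM the number at least 2-fold higher was 58. Among the 54 families taken apart into libraries, the 28 at least 2-fold higher became 22 to 28 when 1 library was left out, an alternative chosen after the data were seen. No paired analysis was possible because each condition has 1 deposited column and the libraries behind it carry no shared number. For 55 families, among them 9 of the 14 past 8-fold, the spread between libraries is unknown in 1 condition or both, and families with a few control reads have ratios that depend on the pseudocount.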
